A study of Mus musculus with 4 samples.

Results

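The 8 genes described here, Zbtb16, Fkbp5, Tsc22d3, Sgk1, Klf9, Errfi1, Ddit4 and Cdkn1a, are glucocorticoid-responsive genes out of 21887 protein-coding genes placed on the mouse genome. They were taken by name, and their positions come from a gene table of GRCm38.p6, the assembly behind mm10. The names were chosen by a reading of the same region lists in which several of these genes stood out, so the share of each gene that lies in regions, the region limits, the tag densities and the ranks below are descriptions and carry no test. RNA polymerase II (Pol II), the enzyme that transcribes protein-coding genes, was mapped in C57BL/6 mice by sequencing DNA precipitated with it from crosslinked chromatin of the heart, lung, kidney and liver. The organs were flash-frozen after recovery from 2 mice, and the antibody (4H8) recognises the repeated C-terminal tail of its largest subunit. There is 1 list of Pol II regions per organ, so n = 1 in each organ and no value has a replicate error. Whether a list pools both mice, their age and sex, the hour of collection and any hormone measurement are unstated here, and none of the 4 groups is labelled with a treatment.

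Glucocorticoids are steroid hormones of the adrenal cortex whose secretion follows the day and rises in stress. They bind the glucocorticoid receptor, which is held by heat shock proteins in the cytoplasm, moves to the nucleus with the hormone and binds DNA as a pair of molecules at palindromic response elements, often far from a gene's start. The genes here are known as induced by the receptor in many cell types, although each also answers to other signals, such as growth factors, DNA damage, low oxygen or insulin.

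Each list gives regions in which the authors' caller found more Pol II tags, the positions of aligned reads, than the genome-wide average. The deposited tag counts are scaled to 10000000 tags per library, and a density below is that count per kb, either of a gene's annotated span or of a region, as stated. A gene is called covered when at least 50% of its span, introns included, lies in regions. The lists rest on 9880184 to 20058183 tags and hold 61956 to 101051 regions, with 32.07% (lung) to 55.14% (liver) of the tags in regions. The labelled organ was borne out by its own markers, since all 6 fixed markers of each organ were covered in that organ's list. In the other lists 0 or 1 of 6 was covered, except that 2 of the 6 lung markers, Sftpc and Ager, were covered in liver. Sftpc had 23.7 tags per kb in liver and 22.9 in lung, and Ager 37.6 in heart and 29.4 in lung. These 2 genes therefore did not single out lung, whereas Sftpb, Nkx2-1, Scgb1a1 and Aqp5 were densest in lung. Intervals in parentheses are exact 95% Poisson intervals of the unscaled tags. Over a gene span these tags are the part of each region's tags that an even spread places there, not tags counted in the gene. The intervals cover counting error only, and tags are not independent molecules. In a whole organ, fewer cells of a type and less polymerase per cell cannot be told apart.

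Of the 8 genes, 7 were covered in heart and 7 in liver, 6 in lung and 5 in kidney. Over all protein-coding genes the covered share was 16.1% in heart, 21.9% in liver, 15.1% in lung and 21.1% in kidney. Zbtb16, Fkbp5, Klf9, Errfi1 and Ddit4 were covered in all 4 lists, which was so for 8.04% of all genes. Tsc22d3 was covered in heart and liver, Cdkn1a in heart, liver and lung, and Sgk1 in no list. Since coverage was among the values that chose the genes, nothing is read from these counts. The values nearest the 50% limit were 52.4% for Tsc22d3 in heart and 52.9% for Fkbp5 in lung on the inside, and 46.8% for Cdkn1a in kidney on the outside. At a limit of 80%, 1 gene, Ddit4, stayed covered in all 4 lists.

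**Figure D1:**
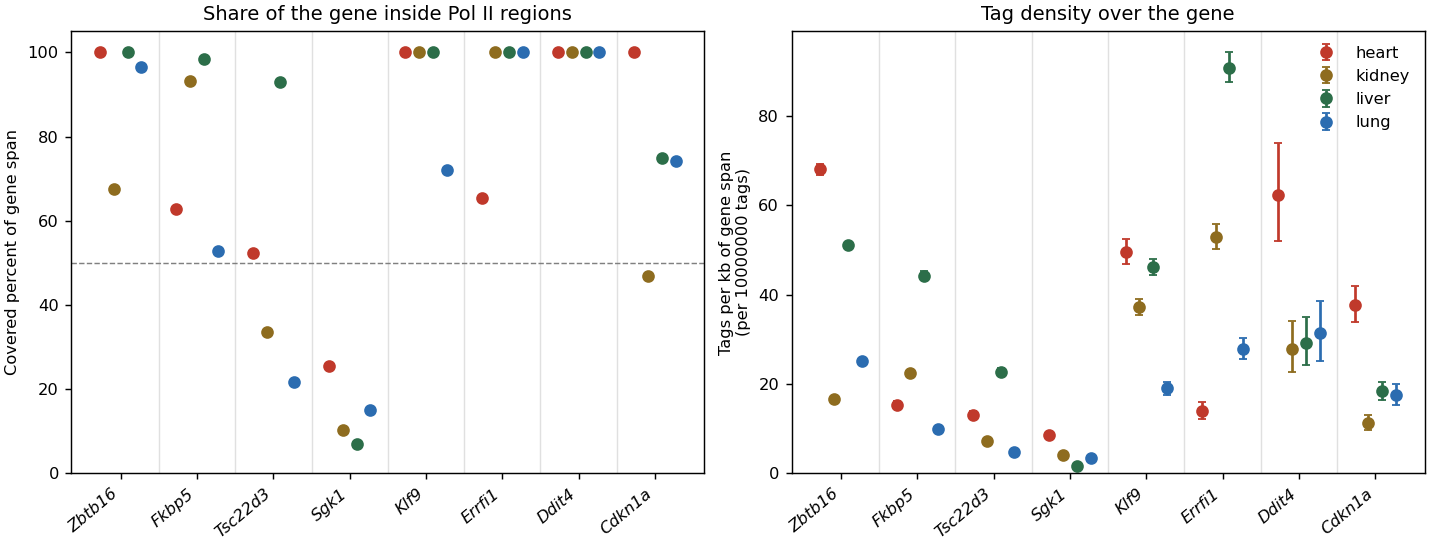
Covered percent of the gene span (left, dashed line at the 50% limit) and tags per kb of gene span per 10000000 tags (right, bars are 95% Poisson intervals of the tags) for the 8 genes, 1 point per organ list. Ddit4 is at 100% in all 4 lists, Sgk1 stays at or below 25.5%, and the highest density is in heart for 5 genes and in liver for Fkbp5, Tsc22d3 and Errfi1.

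The density over the gene span was highest in heart for Zbtb16, Sgk1, Klf9, Ddit4 and Cdkn1a, and highest in liver for Fkbp5, Tsc22d3 and Errfi1. None of the 8 genes was highest in kidney or lung by this measure. Tsc22d3 was highest in kidney, at 32.1 tags per kb, by the region covering most of the gene, and in heart, at 39.4, by the span from its last start. The region covering most of Tsc22d3 lay at the far end of the gene in kidney and lung and further upstream in heart and liver. That measure therefore compares unlike stretches for Tsc22d3, also in its ratio below. Among the 7245 genes covered in at least 1 list, the highest density lay in liver for 39.9%, in heart for 29.2%, in kidney for 23.0% and in lung for 7.83%. The highest density was at least 2 times the lowest for all 7 of the genes covered in any list, as it was for 82.2% of those 7245 genes, so a gap of that size between organs is common. For the uncovered Sgk1 the ratio was 5.47. The ratios ran from 2.23 for Ddit4 and 2.60 for Klf9 through 3.35 for Cdkn1a, 4.09 for Zbtb16, 4.41 for Fkbp5 and 4.63 for Tsc22d3 to 6.51 for Errfi1. Dividing each list by the median density of the 1759 genes covered in all 4 lists left the organ with the highest density of each of the 8 genes as it was, and lowered the Klf9 ratio to 1.83. The ratios were smaller when the density was taken from the region covering most of the gene, at 4.15 for Errfi1, 2.21 for Zbtb16 (lowest in lung), 2.02 for Fkbp5, 1.58 for Klf9, 1.57 for Cdkn1a and 1.48 for Tsc22d3. For Sgk1 this ratio was 2.48, and for Ddit4 it stayed at 2.23. The median density of the 8 genes was 36.7 tags per kb in liver, 26.5 in heart, 19.5 in kidney and 18.3 in lung. Over all genes, most of which were hardly covered, the medians were 0.452, 0.481, 0.907 and 0.685 in the same order. The order of the organs depends on the measure. Taken from the region covering most of each gene, the median of the 8 was 43.6 in heart and 37.3 in liver, from the last start 44.4 and 40.7, and rescaling put lung, at 23.0, above kidney, at 19.5.

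Regions can also be ranked within a list by their tags, a rank that follows length and density together. In each list 4 of the 8 genes were overlapped by a region among the 1% with the most tags, against 6.04% of all genes in heart, 6.26% in liver, 6.18% in lung and 7.27% in kidney. Zbtb16 and Klf9 were among them in every list. Fkbp5 and Errfi1 joined them in kidney and liver, Sgk1 and Ddit4 in heart, and Tsc22d3 and Errfi1 in lung. Cdkn1a was in none of these sets. Just outside the limit stood Fkbp5 in heart at rank 898, Sgk1 in kidney at rank 994 and Sgk1 in lung at rank 1032, where the limits were 819, 882 and 1011 regions. As the rank was also used to choose the genes, the counts are not set against these shares. Ranked by the caller's score instead, the leading 1% of regions touched 1 of the 8 genes in kidney and 0 in the other lists.

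Fkbp5 encodes a co-chaperone that sits on the unliganded glucocorticoid receptor and lowers its affinity for hormone, so that its induction is a feedback on the receptor itself. Its span of 87.4 kb lies on the minus strand at chr17:28398753-28486149. In liver 98.4% of the span was covered, at a density of 44.2 tags per kb (43.2 to 45.2). In kidney 93.1% was covered at 22.4 tags per kb (21.7 to 23.2), in heart 62.7% at 15.2 (14.4 to 16.1) and in lung 52.9% at 10 (9.47 to 10.6). Liver was thus highest and lung lowest on the authors' scale, where the 4 counting intervals are separate. Divided by the list medians, lung (0.509) stayed lowest but came close to heart (0.544). The region covering most of Fkbp5, divided the same way, kept liver highest at 1.70. By that measure kidney was lowest at 0.944, below heart (1.10) and lung (1.14), so the lowest organ depends on the measure. The form of the coverage differed too. A single region of 86.9 kb, with 45.3 tags per kb and rank 89, spanned the start and nearly the whole gene in liver, with 1 further region at the far end. The same span was broken into 7 regions in kidney, 17 in heart and 26 in lung. With only the higher-scoring 50% of regions, the covered share fell to 26.2% in lung, below the 50% limit.

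In the lists where Fkbp5 was broken up, its Pol II regions were not densest at the start. When the span was divided into 10 equal parts from the start, heart reached 30.7 tags per kb of gene in parts 7 and 8 and 17.8 in part 1. In lung parts 7 and 8 held 18.8 and 19.8 tags per kb and part 1 held 9.96. The longest stretch of Fkbp5 inside regions of all 4 lists, 9.52 kb at chr17:28422799-28432322, lies 53.8 to 63.4 kb downstream of the start, within the gene and far from its promoter. The heart region over that stretch was 20.6 kb long, with 30.7 tags per kb (28.4 to 33.3), against 25.8 in the region at the start. Kidney was denser in parts 3 to 5 of 10, at 27.5 tags per kb, than at 23.4 in parts 7 to 9. Within a region tags were spread evenly, so the single liver region cannot show such a profile. Which transcript or strand the tags come from is not resolved by these data.

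**Figure D2:**
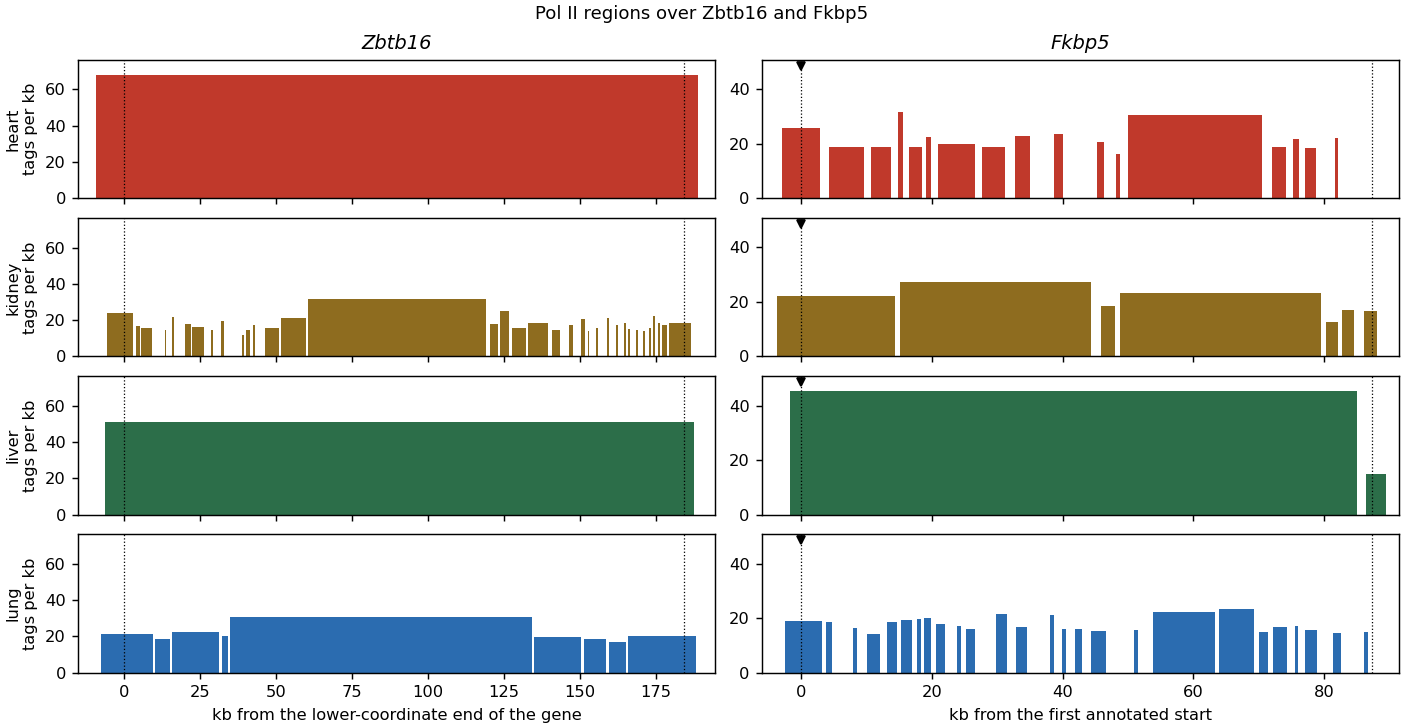
Pol II regions over Zbtb16 (left, kb from the lower-coordinate end) and Fkbp5 (right, kb from the annotated start, marked by a triangle) in the 4 organ lists. Each bar is 1 region, its width the region's length and its height its tags per kb per 10000000 tags, and dotted lines mark the gene ends. Zbtb16 is 1 bar in heart and liver and broken in kidney and lung, and Fkbp5 is close to 1 bar in liver only.

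Zbtb16, also known as PLZF, encodes a zinc finger transcription factor that represses genes in development, in lymphoid cells and in metabolic tissues, and it is known for strong induction by glucocorticoids. It is the longest of the 8 genes, with 184 kb at chr9:48651797-48836225. The promoter table used for the other genes has no entry for Zbtb16. The gene was covered to 100% in heart and liver, 96.5% in lung and 67.6% in kidney. Its density over the span was 68.0 tags per kb (66.8 to 69.2) in heart, 51.1 (50.3 to 51.8) in liver, 25.2 (24.6 to 25.9) in lung and 16.6 (16.1 to 17.1) in kidney. Heart was 4.09 times kidney, and no pair of these counting intervals overlaps.

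A single region enclosed the whole of Zbtb16 in 2 organs. The heart region, from 48642645 to 48840545, was 198 kb long, held 13448 tags per 10000000 and ranked 3rd of 81887 regions. It reached 9.15 kb past the lower-coordinate end of the gene and 4.32 kb past the other. The liver region, from 48645488 to 48839229, was 194 kb long, held 9894 tags and ranked 7th of 61956, reaching 6.31 and 3.0 kb past the ends. In lung the gene was divided among 9 regions, of which the largest, 99.2 kb with 30.8 tags per kb, ranked 4th of 101051. In kidney it was divided among 35 regions, the largest of 58.5 kb with 31.8 tags per kb and rank 105.

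The kidney and lung regions were densest over the middle of Zbtb16. Of 10 equal parts counted from the lower-coordinate end, kidney held 31.8 tags per kb of gene in parts 5 and 6, 6.59 in part 2 and 5.05 in part 9. Lung held 30.8 in parts 3 to 7 and 15.7 in part 9. The 58.5 kb of the largest kidney region, 60.6 to 119 kb from that end, is the longest stretch inside regions of all 4 lists. Of the whole gene 66.1% lay in regions of all 4 lists and every base in at least 2 of them. The region at the middle of the gene held 31.8 tags per kb of region (30.7 to 32.9) in kidney and 30.8 (29.9 to 31.8) in lung. Divided by the list medians these were 1.28 and 1.56, so which is higher depends on the scaling. Gm32280, a short gene lying inside Zbtb16, was enclosed by the heart and liver regions, and its tags cannot be separated from those of Zbtb16.

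Zbtb16 can be set beside genes of like length. Of the 2429 genes of 100 kb or more, the share covered was 5.97% in heart, 3.75% in lung, 7.33% in kidney and 7.99% in liver, and 19 were covered in all 4 lists. Zbtb16 had the highest density of the 2429 in heart and in lung, the fifth highest in liver and rank 62 in kidney. At least 95% of the span was covered in 32 of these genes in liver, 13 in heart, 4 in kidney and 2 in lung. Zbtb16 and Rbpms were the only genes of that length to reach 95% in heart, liver and lung together. In kidney 85 long genes had a higher covered percent than Zbtb16. In heart, genes of any length with a higher density included Txnip at 107 tags per kb. The myosin genes Myh6 and Myh7 were both at 91.1, and so were Cmtm5 and Il25. Genes inside the same region all take its mean, so these equal values are not read as separate densities.

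**Figure D3:**
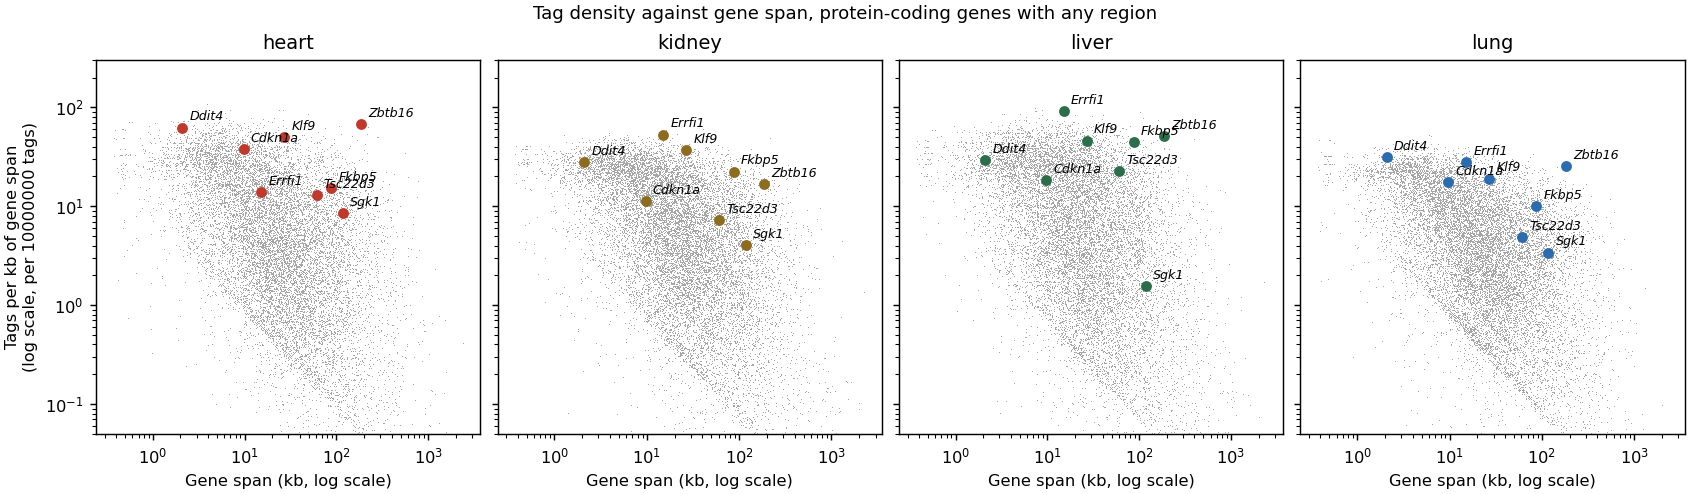
Tags per kb of gene span per 10000000 tags against gene span (both axes on log scales) in each organ list, with 1 grey dot per protein-coding gene that has any region and the 8 genes named in colour. Zbtb16, at 184 kb, stands at the upper edge of genes of its length in heart, liver and lung, while Sgk1, at 118 kb, lies among the bulk of genes.

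Klf9 encodes a Kruppel-like zinc finger transcription factor that is induced by glucocorticoids, thyroid hormone and the circadian clock. Its span of 26.9 kb on the plus strand at chr19:23141226-23168129 was covered to 100% in heart, kidney and liver and over 72.1% in lung. The density was 49.5 tags per kb (46.9 to 52.3) in heart, 46.1 (44.3 to 48.0) in liver, 37.2 (35.4 to 39.0) in kidney and 19.1 (17.6 to 20.5) in lung. The counting intervals of heart and liver overlap, which does not show the values to be equal. Those of kidney and lung lie below both. The Klf9 regions of heart, kidney and liver have nearly the same limits. They begin 11.5, 10.9 and 11.4 kb upstream of the start and end 4.95, 5.35 and 5.85 kb beyond the gene, with lengths of 43.4, 43.1 and 44.1 kb. In lung the region at the start began 9.58 kb upstream but ended 12.2 kb into the gene, and 5 shorter regions followed. That lung region held 31.4 tags per kb (29.4 to 33.5). The ranks by tags were 121 in heart, 366 in liver, 154 in kidney and 210 in lung. With only the higher-scoring 50% of regions, Klf9 kept no region in liver.

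Tsc22d3 encodes GILZ, a leucine zipper protein that restrains inflammatory transcription factors and carries part of the anti-inflammatory effect of glucocorticoids. Its span of 61.0 kb on the minus strand of chromosome X, from 140539528 to 140600522, holds 3 annotated starts, and the answer depends on which is used. Over the whole span the covered share was 93.0% in liver, 52.4% in heart, 33.5% in kidney and 21.6% in lung. The density was 22.7 tags per kb (21.8 to 23.5) in liver, 13 (12.1 to 13.9) in heart, 7.23 (6.72 to 7.77) in kidney and 4.89 (4.42 to 5.4) in lung. From the third start, 57.9 kb downstream of the first, the remaining 3.14 kb were covered to 100% in every list. The region there held 39.4 tags per kb in heart, 37.2 in liver, 32.1 in kidney and 28.7 in lung, a ratio of 1.37 between the highest and the lowest. Divided by the list medians these were 1.41, 1.39, 1.29 and 1.46, so lung became the highest. The first start lay in a region of 0.5 kb in heart, 0.657 kb in kidney and 2.52 kb in liver, with 23.2, 15.1 and 19.1 tags per kb, and in no region in lung. Those of heart and kidney held only 11.6 and 9.95 tags, where the lowest regions of these lists held 6.07 and 5.42. The second start lay in a region in heart and liver only. With only the higher-scoring 50% of regions the liver cover of the whole span was 22.2%. The longest region lying between starts 1 and 3 was in liver, at 28.8 kb with 26.1 tags per kb. In heart the longest there was 12.2 kb with 21.7 tags per kb. Kidney and lung had none longer than 2.28 kb there.

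The 250 bases before starts 1 and 3 of Tsc22d3 are given because the first start lay in a region in 3 of 4 lists and the third in 4 of 4. They are RefSeq sequences on GRCm38.p6, 5′ to 3′ on the minus strand, at chrX:140600523-140600772 and chrX:140542669-140542918. Capitals mark AGAACA or TGTTCT, the 6-letter arm of the glucocorticoid response element, searched on both strands.
Tsc22d3 start 1: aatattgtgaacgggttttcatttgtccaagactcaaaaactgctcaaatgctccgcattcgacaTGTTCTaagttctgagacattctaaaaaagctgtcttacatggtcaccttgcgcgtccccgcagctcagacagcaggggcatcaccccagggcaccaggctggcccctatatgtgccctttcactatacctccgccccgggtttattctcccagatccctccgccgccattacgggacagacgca
Tsc22d3 start 3: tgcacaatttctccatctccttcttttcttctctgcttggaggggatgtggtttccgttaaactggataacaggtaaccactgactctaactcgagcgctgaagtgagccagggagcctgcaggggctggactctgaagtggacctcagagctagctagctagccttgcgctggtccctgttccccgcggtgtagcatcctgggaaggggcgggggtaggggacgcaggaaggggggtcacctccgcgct
The first window holds 1 arm, 185 bases before the start, and the third holds none. Of the 32851 promoter windows in the table, each 250 bases before to 50 after a start, 19.0% hold at least 1 arm, and of the 16 windows matched to 7 of the 8 genes, 4 do. A match is a string of letters and not a measured binding site, and the absence of one says nothing of the receptor.

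Sgk1 encodes a serine/threonine kinase that is induced by glucocorticoids and mineralocorticoids and raises the number of epithelial sodium channels at the cell surface in the kidney and lung. Its annotated span is 118 kb on the plus strand at chr10:21882184-21999903, with 6 annotated starts. Over this span only 25.5% was covered in heart, 15% in lung, 10.4% in kidney and 6.94% in liver, and the density was 8.55 tags per kb (8.03 to 9.10), 3.39 (3.11 to 3.69), 4.07 (3.8 to 4.37) and 1.56 (1.41 to 1.73) in the same order. In every list the densest region of Sgk1 sat at the 3′ end of the span. The first start and the third lay in no region of any list, and the second lay in a short lung region only. Starts 4, 5 and 6, at 21992223, 21993890 and 21994666, lay in 1 region in each list, and everything from the fourth start to the gene's end was covered in all 4.

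The region over the downstream Sgk1 starts was of like length in the 4 organs and differed in density. It was 14 kb long in kidney, 13.2 in heart, 12.8 in liver and 10.7 in lung. It held 56.0 tags per kb (52.0 to 60.2) in heart, 42.3 (39.7 to 45.0) in kidney, 28.6 (25.8 to 31.5) in lung and 22.6 (20.8 to 24.5) in liver. The order was heart, kidney, lung and liver, with separate counting intervals, and heart was 2.48 times liver. It ranked 705 by tags in heart, 994 in kidney, 1032 in lung and 3664 in liver. The region carried 100% of the tags of regions touching Sgk1 in liver and 96.3% in kidney, but 60.6% in heart and 69.3% in lung, where 11 and 10 further regions lay along the upstream part of the span.

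The windows before starts 1, 5 and 6 of Sgk1 are given because the first lay in no region, the fifth holds a full palindrome and the sixth, which gives the shortest transcript span, lay in regions of all 4 lists. They are RefSeq sequences of GRCm38.p6, plus strand, at chr10:21881934-21882183, chr10:21993640-21993889 and chr10:21994416-21994665, with the same arms in capitals.
Sgk1 start 1: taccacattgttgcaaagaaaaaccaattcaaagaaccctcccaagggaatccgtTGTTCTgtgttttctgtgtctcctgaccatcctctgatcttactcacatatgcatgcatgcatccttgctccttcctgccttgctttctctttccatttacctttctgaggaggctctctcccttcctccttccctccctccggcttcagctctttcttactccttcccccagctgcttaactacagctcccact
Sgk1 start 5: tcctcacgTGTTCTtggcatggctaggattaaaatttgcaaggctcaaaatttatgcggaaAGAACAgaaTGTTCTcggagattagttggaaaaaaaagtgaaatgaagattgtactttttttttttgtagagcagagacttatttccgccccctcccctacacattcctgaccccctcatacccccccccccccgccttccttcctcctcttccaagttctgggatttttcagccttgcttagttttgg
Sgk1 start 6: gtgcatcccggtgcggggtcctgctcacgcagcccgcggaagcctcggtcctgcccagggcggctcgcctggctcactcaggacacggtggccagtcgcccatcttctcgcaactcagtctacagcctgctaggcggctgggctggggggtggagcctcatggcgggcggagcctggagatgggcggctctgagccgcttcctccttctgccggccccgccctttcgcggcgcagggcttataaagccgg
In the window of the fifth start AGAACA and TGTTCT stand 3 bases apart, the spacing of a palindromic glucocorticoid response element, at chr10:21993701-21993715. That is 189 bases before the fifth start and 965 before the sixth. Exactly this arrangement, on either strand, occurs in 3 of the 32851 promoter windows, or 0.00913%, the others belonging to Acnat2 and Gm35041. The 15 bases lie inside the Sgk1 region of all 4 lists, which begins 3.24 kb before them in heart, 1.97 in liver, 3.04 in lung and 4.61 in kidney. A further arm stands 242 bases before the fifth start. The window of the sixth start has no arm and holds the letters TATAAA, as do 13.6% of all windows. The window of the first start, which lay outside the regions, also has 1 arm.

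**Figure D4:**
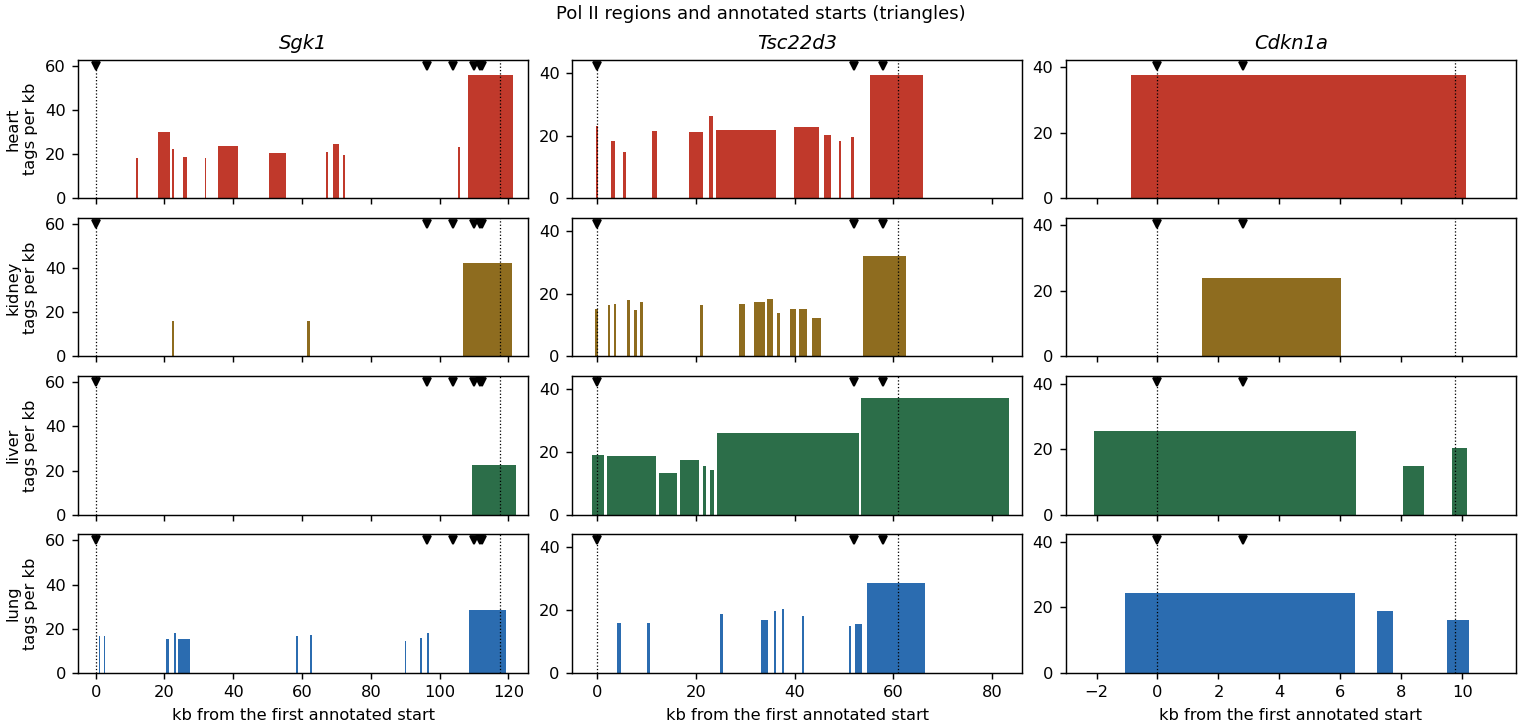
Pol II regions over Sgk1, Tsc22d3 and Cdkn1a in the 4 organ lists against the distance in kb from the first annotated start in the direction of transcription. Bar width is region length, bar height tags per kb per 10000000 tags, triangles are annotated starts and dotted lines the gene ends. The tallest bar of Sgk1 lies over the last 3 starts in every list, and that of Tsc22d3 over the third start.

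Errfi1 encodes MIG6, a cytoplasmic inhibitor of the epidermal growth factor receptor that is induced both by glucocorticoids and by the receptor it inhibits. Its span of 15.1 kb on the plus strand at chr4:150853796-150868889 was covered to 100% in kidney, liver and lung and over 65.3% in heart. The density was 90.7 tags per kb (87.4 to 94.2) in liver, 52.9 (50.1 to 55.8) in kidney, 27.8 (25.5 to 30.2) in lung and 13.9 (12.1 to 16.0) in heart. Liver was 6.51 times heart, the widest ratio of the 8 genes. Errfi1 had the third highest density of all 21887 genes in liver, after Serpina3k at 95.5 and Azgp1 at 92.4, both genes of secreted plasma proteins. Serpina3k has close paralogs, so its value is uncertain. In kidney it had the fourth highest, after Ndrg1 at 59.3, Amotl2 at 57.6 and Txnip at 54.3. The Errfi1 region reached well past the gene where the gene was fully covered. It began 12.6 kb upstream in liver, 6.26 in kidney and 7.42 in lung, and ended 8.98, 10.6 and 7.96 kb beyond the gene. In heart the largest of 4 regions was 6.63 kb long with 21.9 tags per kb, and it began past the first annotated start but held the second, 1.27 kb downstream. Its rank by tags was 5508 in heart, against 142 in liver, 130 in kidney and 128 in lung. With only the higher-scoring 50% of regions, Errfi1 kept no region in heart or lung.

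Ddit4 encodes REDD1, an inhibitor of the growth-promoting kinase complex mTORC1 that is also induced by low oxygen and DNA damage. It is the shortest of the 8 genes, with 2.10 kb on the minus strand at chr10:59949675-59951770, and it was covered to 100% in every list. With only the higher-scoring 50% of regions, Ddit4 kept no region in liver. The density was 62.2 tags per kb (51.9 to 73.9) in heart, 31.3 (25.1 to 38.6) in lung, 29.2 (24.3 to 34.9) in liver and 27.9 (22.6 to 34.0) in kidney. Heart was above the other 3 organs, and the counting intervals of those 3 overlap on the authors' scale. They rest on 87 to 123 unscaled tags each, which are the gene's even share of a longer region and were not counted in the gene. From the whole regions the intervals were 27.9 to 34.9 in lung, 27.2 to 31.4 in liver and 25.6 to 30.2 in kidney, which also overlap. The heart value has a limit of its own. Its region was 64.8 kb long, ranked 35 and also enclosed Anapc16, a subunit gene of the anaphase-promoting complex, and 3.26% of Ascc1. Since tags were spread evenly in a region, the heart density of Ddit4 is the mean of that whole region. In kidney, liver and lung the region was 12.7, 12.8 and 7.58 kb long, and no other protein-coding gene lay in it. The region reached 54.0 kb upstream of the Ddit4 start in heart, 3.01 in liver, 2.75 in lung and 1.79 in kidney. Anapc16, inside that stretch, was itself covered to 100% in kidney and liver and 59.0% in lung by separate regions.

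**Figure D5:**
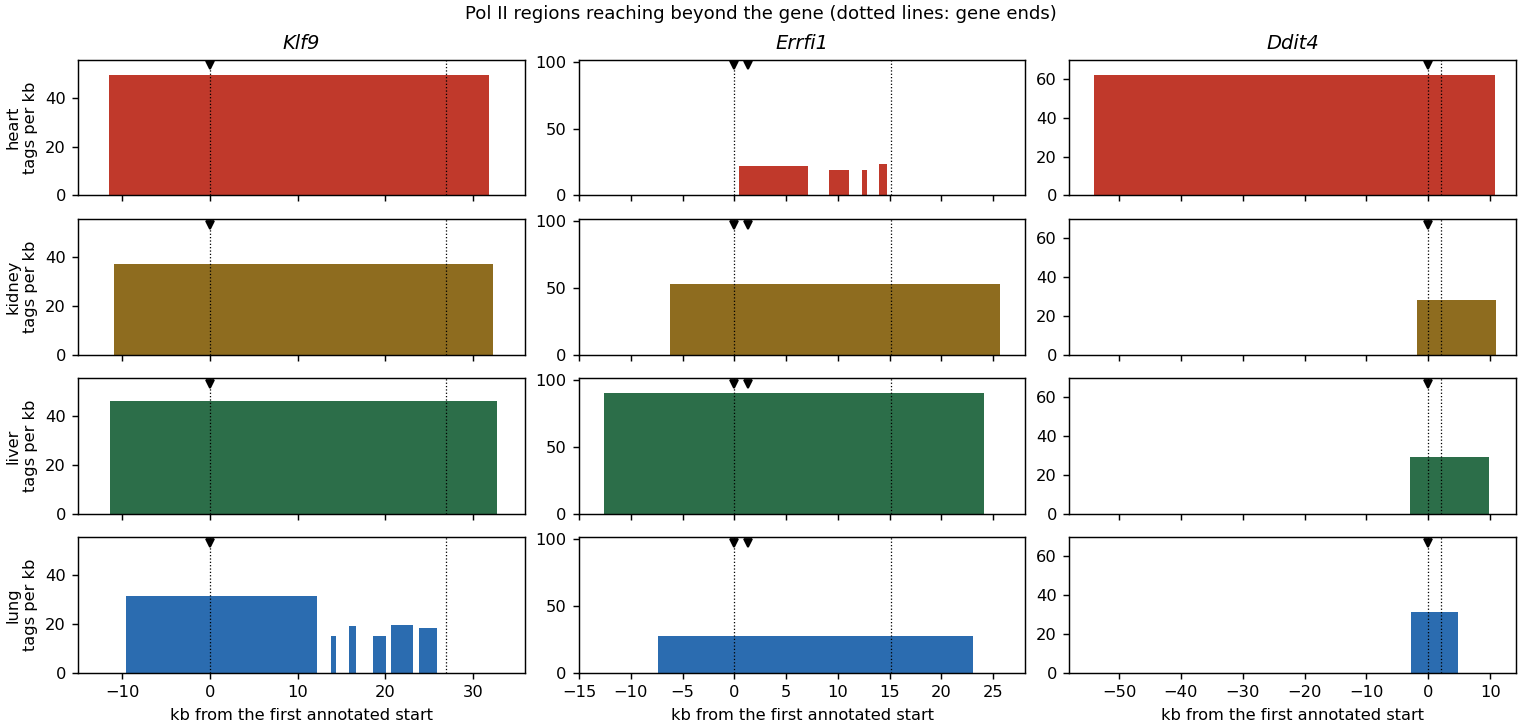
Pol II regions over Klf9, Errfi1 and Ddit4 in the 4 organ lists against the distance in kb from the first annotated start in the direction of transcription. Bar width is region length, bar height tags per kb per 10000000 tags, triangles are annotated starts and dotted lines the gene ends. The heart bar over Ddit4 extends 54.0 kb upstream, and the heart bars over Errfi1 are the lowest of the 4 lists.

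Cdkn1a encodes p21, an inhibitor of cyclin-dependent kinases and a classical target of the tumour suppressor p53, which glucocorticoids also induce. Its span of 9.74 kb on the plus strand at chr17:29090979-29100722 was covered to 100% in heart, 74.8% in liver, 74.1% in lung and 46.8% in kidney. The density was 37.7 tags per kb (33.9 to 41.8) in heart, 18.4 (16.5 to 20.4) in liver, 17.5 (15.3 to 19.9) in lung and 11.3 (9.68 to 13) in kidney. Heart was highest and kidney lowest, and the counting intervals of liver and lung overlap on this scale. Divided by the list medians, lung was at 0.887 and liver at 0.689. The heart region, from 29090121 to 29101098, fitted the gene closely, with 0.858 kb before the start and 0.376 kb after the end. The kidney region, 4.56 kb long, left out the first start and held the second, 2.79 kb downstream, which lay in a region in all 4 lists. The kidney region held 24.0 tags per kb (20.7 to 27.8), that of liver 25.6 (23.3 to 28.1) and that of lung 24.2 (21.2 to 27.4). The counting intervals of these 3 organs overlap on the authors' scale. Divided by the list medians the 3 densities were 0.968, 0.959 and 1.23.

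The window before the first Cdkn1a start is given because that start was in a region in heart, liver and lung and not in kidney. It is a RefSeq sequence of GRCm38.p6 on the plus strand, chr17:29090729-29090978. Capitals mark matches to 1 arm of the p53 binding-site consensus on either strand, a motif added after the sequence had been seen.
Cdkn1a start 1: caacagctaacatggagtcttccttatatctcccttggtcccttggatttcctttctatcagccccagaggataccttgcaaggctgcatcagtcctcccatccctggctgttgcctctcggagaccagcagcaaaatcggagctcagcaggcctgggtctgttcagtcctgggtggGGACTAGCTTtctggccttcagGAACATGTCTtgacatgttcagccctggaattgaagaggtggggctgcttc
The matches begin 73 and 51 bases before the start. The same arm matches in 8.36% of all windows and in 2 of the 16 windows of these genes, the other being the first Tsc22d3 start. These shares are of windows with at least 1 arm and not of windows with a full site. No AGAACA or TGTTCT is present in either Cdkn1a window.

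Over the 7 genes with annotated starts, 12 of 16 starts lay in a region in heart, 13 in liver, 12 in lung and 11 in kidney, against 40.2%, 46.0%, 40.2% and 46.3% of the 21263 annotated starts compared. All 4 lists held 9 of the 16, against 27.3% of all starts, and 2, both of Sgk1, were in none, against 40.6%. The starts of 1 gene often share a region and are not independent of each other or of the coverage that chose the genes, so no excess is read from these counts.

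For each gene, the genes with the most similar densities over the 4 lists were found by the Euclidean distance of log2(tags per kb + 1), among genes of at least 5 kb covered in at least as many lists. The nearest to Fkbp5 was Nbr1 (distance 0.215), with 16.1, 25.2, 41.1 and 10.4 tags per kb in heart, kidney, liver and lung, followed by Trabd and Dhdh. The nearest to Klf9 was Tuba4a (0.200), then Tob2 and Car14. The nearest to Ddit4 was Ddit3 (0.183), with 58.4, 26.7, 31.4 and 28.9 tags per kb, then Aldoa and Ppp4c. The heart value of Ddit4 used here is the mean of a longer region that also enclosed Anapc16. Aldoa and Ppp4c had identical values in all 4 lists, as genes inside the same region do, and are not read as separate neighbours. Ddit3 encodes CHOP, a transcription factor of the stress response to unfolded protein. The nearest to Sgk1 was Mical1 (0.209), then Ears2, to Tsc22d3 Rassf8 (0.400), then Fbxo9 and Gpr152, and to Cdkn1a Ifrd1 (0.467), then Gas2l1 and Snrk. Zbtb16 and Errfi1 had less similar neighbours. The nearest to Zbtb16 was Syf2 (0.653), a gene of 6.56 kb, then Agpat2 and Bbc3, and the nearest to Errfi1 was Alas1 (0.934), then Ptges2 and Tardbp. Alas1, which starts heme synthesis, had 67.7 tags per kb in liver and 23.8 in heart.

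The proteins that handle the receptor and its hormone were listed as 16 genes. Of these, 11 were covered in kidney, 10 in liver, 9 in heart and 7 in lung, where the share over all genes was 21.1%, 21.9%, 16.1% and 15.1%. All 4 lists covered 5 of them, against 8.04% of all genes. Covered in no list were 4 of the 16, against all but 7245 of the 21887 genes. The receptor gene Nr3c1 itself was covered to 86.2% in liver, 50.3% in heart, 43.3% in lung and 58.5% in kidney, with 25.3, 12, 8.47 and 12.8 tags per kb over its 109 kb. On the authors' scale liver was thus highest for Nr3c1 and lung lowest, as for Fkbp5 and Tsc22d3 over their spans. By the same measure 5 of the 8 genes were highest in heart. Over the 1759 genes covered in all 4 lists, the median was also lower in lung (19.7 tags per kb) than in heart (28.0). Among genes covered in at least 1 list, liver was highest for 39.9%. Nothing is therefore read from the likeness of Nr3c1 to Fkbp5 and Tsc22d3. Of the 16, Hsp90ab1, a heat shock protein that holds the receptor ready for hormone, had the highest summed density, with 46.1, 34.6, 57.3 and 31.2 tags per kb in heart, kidney, liver and lung. The mineralocorticoid receptor gene Nr3c2 had the lowest, with 0.988, 1.73, 1.62 and 0.668 tags per kb over 347 kb. Hsd11b1, whose enzyme regenerates active hormone, was covered to 80.2% in kidney, 75.9% in liver, 28.6% in heart and 7.23% in lung. Hsd11b2, whose enzyme inactivates it, was covered to 100% in kidney, 69.7% in lung and 38.4% in heart, and had no region in liver.

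A further 39 genes known as induced by glucocorticoids had 30 members covered in kidney, 29 in liver, 27 in heart and 20 in lung, beside the same 21.1%, 21.9%, 16.1% and 15.1% of all genes. All 4 lists covered 16, beside 8.04% of all genes. Covered in no list were 3 of the 39, beside all but 7245 of the 21887 genes. The median span of the 39 was 14.5 kb, against 43.9 kb for the 8 genes and 17.2 kb for all genes, and covered percent depends on length. The highest summed density was that of Txnip, which encodes an inhibitor of thioredoxin and of glucose uptake, with 107 tags per kb in heart, 45.9 in liver, 47.2 in lung and 54.3 in kidney. The lowest was that of Il1r2, a decoy receptor for interleukin, at 1.65 tags per kb or less in every list. Several members were covered in few of the organs, and they were singled out after their values had been seen. Tat, a liver enzyme of tyrosine breakdown, was covered to 100% in liver and had no region in the other lists. Pck1, which encodes an enzyme of glucose synthesis, was covered to 100% in kidney and liver and had no region in heart or lung. Fbxo32, a ubiquitin ligase gene of muscle wasting, had 47.1 tags per kb in heart and 1.15 or fewer elsewhere. Per1, Dusp1, Zfp36 and Cebpb were covered to 100% in all 4 lists, as Ddit4 was.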

How the data were processed

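Pol II chromatin immunoprecipitation was read as 50-base pairs from Tn5-tagmented libraries of 4 organs, 1 list each. Per the submitters' processing notes, the tools were Bowtie2 2.2.8 and HOMER 4.8 and the build was mm10. Per the file headers, the authors ran HOMER's findPeaks in its histone style and joined 500 bp windows, taking fragments of 78 bp, a 2 Gb genome, no more than 1 tag per bp and a Poisson p limit of 0.001. The command in the headers names no control library. The deposited lists do not always follow these settings, as 3 regions in each list hold more than 1 tag per bp, and regions lie as close as 500 bp against a stated minimum of 1000 bp, which bears on densities and on counts of regions. The signal deposited for each region is its tag count, which the authors scaled to 10000000 tags. Scores were deposited as the caller gave them. The deposited ratio, a clonal fold change, was not used. How reads matching several places were handled is not stated there.

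Each region's tags were spread evenly over its length (end minus start as deposited) and summed over a gene's annotated span. Stretches with no region count as 0, which lowers a density over a span, and a gene inside a longer region takes that region's mean, which can lie above or below its own. The totals were 20058183 tags in liver, 16589890.5 in kidney, 13296938 in lung and 9880184 in heart, and the lowest deposited regions held 5.23, 5.42, 5.64 and 6.07 tags per 10000000. Organs were compared as values set side by side, without a test, as n = 1. The 8 genes and the gene lists were chosen with earlier results of these data known. The rule for names takes the 8 genes, the 3 most similar genes of each, genes in the same region, and the list members with the highest and lowest summed density, and other names were chosen after their values were seen. A gene that the rule names is not reported here. Motifs were searched on both strands of RefSeq promoter windows. Alternatives changed the coverage limit, the regions used, the ranking, the scaling and the span. The interval code was tested on simulated data, where 100% of 2000 covered lengths, 2000 tag sums and 500 overlap calls equalled per-base counts. Python 3.11.15, numpy 2.4.6 and pandas 2.3.3 were used.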

Additional observations from a re-analysis of the deposited data

How the results depend on the processing

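No paired analysis was possible because there is 1 list per organ and no test. The number of the 8 genes covered fell to 4 in heart, 3 in lung and 1 in all 4 lists with a limit of 80% of the span, and to 4 in liver and 1 in all 4 lists with only the higher-scoring 50% of regions. Ranked by score, the leading 1% of regions touched 1 of the genes in kidney, 0 in heart, 0 in liver and 0 in lung. The leading 0.1% by tags touched 0, 2, 1 and 1 in that order. In lung the leading 1% touched 2 with the higher-scoring 50% of regions and 2 where a region had to cover at least 50% of the span.

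The median density of the 8 genes became 43.6, 31.9, 37.3 and 28.7 tags per kb in heart, kidney, liver and lung when taken from the region covering most of each gene. Rescaled to 1 median over the lists, it was 23.4 in heart, 34.1 in liver and 23.0 in lung. The span from the last annotated start, an alternative chosen after seeing the data, gave 44.4, 30.0, 40.7 and 26.5. The median covered percent became 77.9, 74.1, 48.5 and 44.4 with the higher-scoring 50% of regions, 81.3 in heart, 79.0 in kidney and 69.6 in lung with a minimum of 10 tags, 78.4 in heart and 73.6 in lung with 1 kb added at each end, and 100, 100, 100 and 98.3 from the last start. By that span Tsc22d3 was highest in heart (39.4), and by the covering region in kidney (32.1), not in liver. The covering region of Tsc22d3 was not the same stretch in each list. The median values have no replicate spread, so every change is given. Of the densities of single genes by organ, 19 moved beyond their counting interval and 13 did not, both from the covering region and after rescaling. Stretches below the caller's limit carry no deposited tags, which limits every density.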
